A study of Mus musculus with 16 samples.

Results

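The oxytocin and vasopressin system was followed here through 6 genes: the peptide genes Oxt and Avp, the receptor genes Oxtr, Avpr1a and Avpr1b, and Lnpep, which encodes an aminopeptidase that degrades both peptides. They were chosen by symbol and make up 6 of the 17293 rows of the deposited expression table. RNA had been sequenced from the dissected amygdala of 16 C57BL/6 mice (C57BL6/J in the study's methods) at PN28 (postnatal day 28). The mice formed 4 groups of 4: CTRL males (libraries LM17 to LM20), CTRL females (LM21 to LM24), PS males (LM25 to LM28) and PS females (LM29 to LM32). PS (prenatally stressed) mice were carried by dams put through chronic, unpredictable psychosocial stressors during gestation, while the dams of CTRL mice were left alone. The labels name no transgene, drug or other agent, and within each sex the animals came from separate litters, so the libraries stand for separate animals.

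Oxytocin and vasopressin are short, related neuropeptides made mainly by magnocellular and parvocellular neurons of the hypothalamus and, for vasopressin, also by neurons of the medial amygdala and the bed nucleus of the stria terminalis. They reach the amygdala largely through axons, so the RNA of the peptides and that of their receptors usually lie in different cells. In the amygdala, oxytocin receptors on inhibitory neurons of the central nucleus dampen fear output, and V1a receptors excite cells of its medial part. The receptors Oxtr, Avpr1a and Avpr1b signal mainly through Gq and phospholipase C. Avpr1b is best known from pituitary corticotrophs and from the CA2 field of the hippocampus, where it acts in social memory.

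The kinship of the peptides can be read from the bases that encode them. The following stretches of 27 bases are the codons of the mature peptides in the GENCODE M21 transcripts, 5′ to 3′, and they are shown to set the related peptides side by side, since both genes were at or near 0 in the amygdala. Capitals mark the 5 bases at which they differ, which change 2 of the 9 residues.
Oxt codons 20 to 28: tgctacAtccagaactgcccCCTGggc
Avp codons 24 to 32: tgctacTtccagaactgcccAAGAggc
Oxt lies on chromosome 2 from 130576173 to 130577054 (mm10) on the plus strand and Avp from 130580620 to 130582554 on the minus strand, with 3565 bases between them, so the genes point towards each other.

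Oxtr, the member for which groups of mice differed, lies on chromosome 6 from 112473683 to 112489943 on the minus strand. Its RefSeq promoter window (GRCm38.p6, chr6:112489776-112490075, minus strand) holds 250 bases before and 50 after the start that RefSeq gives, which lies inside the GENCODE span. Capitals mark the letters GGTCA, an oestrogen response half-site, searched on both strands as GGTCA or TGACC. This was the only motif searched, and it was picked after the oestrogen receptor gene Esr1 was seen to be lower in PS males. A link between Esr1 and Oxtr was not tested.
Oxtr promoter: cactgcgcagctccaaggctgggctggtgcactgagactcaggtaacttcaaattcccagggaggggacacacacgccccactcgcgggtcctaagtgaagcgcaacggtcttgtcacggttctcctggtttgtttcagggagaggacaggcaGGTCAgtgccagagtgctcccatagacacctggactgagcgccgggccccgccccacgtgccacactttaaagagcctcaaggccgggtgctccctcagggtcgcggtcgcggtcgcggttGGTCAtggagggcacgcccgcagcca
These letters occurred 2 times, from bases 154 and 275 of the window, and 40.5% of all 32851 promoter windows of this length held them at least once. How many windows held them 2 or more times was not counted. The Oxt window held 5 and those of Avp, Avpr1a and Lnpep held 0. A match of so few letters is a description of the window and not a binding site.

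The deposited values had been corrected for unwanted variation by the authors, and their sums per library, between 39989993 and 44275406, are the only depth these files give. In this depth 1 unit of the corrected value equals 0.0226 to 0.025 CPM (the share of a library's sum that a gene holds, on a common scale, computed by the authors from the corrected values). No pair of libraries within a group was identical (0 of 24), and 0 libraries went against their sex label. The tissue held the glutamatergic marker Slc17a7 at group means of 1904 to 2596 CPM, and the hippocampal marker Fibcd1 at group means of 663 to 1122 CPM, while Ucn3, a marker of the medial amygdala, was listed at 0 in every library. All tests across genes used limma on log2(TMM-scaled CPM + 0.5) over the genes whose mean exceeded 0.5 CPM in either or both groups of the comparison, and a gene was called at a Benjamini-Hochberg adjusted p under 0.05 with a fold change over 1.5. Of the 6 members, Oxtr, Avpr1b and Lnpep passed this filter in all 5 comparisons, and Oxt, Avp and Avpr1a passed it in none.

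The peptide genes were at or close to 0 in every group. Oxt was listed at 0 in all 16 libraries, as were 279 genes of the table, so it takes part in no comparison. Avp was above 0 in 6 of 16 libraries. In CTRL males Avp stood at 0 CPM in LM17, 0.0240 in LM18, 0.167 in LM19 and 0.160 in LM20, which are corrected values of 0, 1, 7 and 7. All 4 PS males were listed at 0 for Avp. Among CTRL females only LM22 was above 0, with 0.117 CPM, and among PS females LM31 had 0.0681 and LM32 had 0.0226 CPM. The groups overlapped at 0 in every comparison, and the exact permutation test gave p = 0.143 in males and p = 1 in females (two-sided, where 4 libraries against 4 can give no p below 0.0286). CTRL male LM17 was the only CTRL male at 0, so leaving it out separates the male groups whatever the other values are. The exact permutation test must then give the smallest p that 3 against 4 libraries allow (p = 0.0286), which adds no support for a difference. Sim1 and Otp, transcription factors of the hypothalamic neurons that make oxytocin and vasopressin, were also listed at 0 in all libraries. They were among 4 of the 7 hypothalamic marker genes present that stood at 0 throughout. Others of that list did not: Pou3f2 had group means of 5.31 to 7.95 CPM and Cartpt of 0.458 to 0.978 CPM. A value of 0 after such a correction does not show that no read was present.

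Oxtr encodes the oxytocin receptor. It fell in PS males compared with CTRL males. CTRL males had 27.7 (LM17), 45.5 (LM18), 41.1 (LM19) and 45.0 CPM (LM20). PS males had 12.9 (LM25), 23.4 (LM26), 26.4 (LM27) and 23.5 CPM (LM28). Every PS male lay below every CTRL male, though LM27 and LM17 were close to each other, and LM25 stood lowest of all 16 libraries. The mean of PS males was 21.5 ± 5.93 CPM against 39.8 ± 8.33 CPM among CTRL males (SD, n = 4 each), a 1.85-fold lower mean level. The log2 difference was -0.95 (SE 0.23, 95% confidence interval -1.44 to -0.46, limma, adjusted p = 0.0441), and the exact permutation test on this gene alone gave the smallest p it can give (p = 0.0286, two-sided). In this comparison 1.01% of 14309 genes were called and 0.853% were called lower (122 lower and 23 higher, or 101 and 54 with CPM not scaled further). Libraries of PS and CTRL males did not overlap on the CPM scale for 23.9% of genes, and for 6.62% with PS males lower, so the lack of overlap alone is common here. In bulk tissue, fewer Oxtr-expressing cells and less Oxtr RNA per cell cannot be told apart.

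In females Oxtr did not pass the test, and its values lay in the other direction. CTRL females had 22.3 (LM21), 25.6 (LM22), 29.7 (LM23) and 19.3 CPM (LM24). PS females had 34.4 (LM29), 25.9 (LM30), 33.1 (LM31) and 34.0 CPM (LM32). PS females LM29, LM31 and LM32 lay above every CTRL female, and LM30 lay among them. PS females averaged 31.9 CPM (SD 3.998, n = 4) and CTRL females 24.2 CPM (SD 4.48, n = 4), and the log2 difference was 0.42 (SE 0.23, interval -0.07 to 0.90, limma, adjusted p = 0.463). Limma called 0.0% of 14236 genes in females, although 12.7% (1806 genes) had an unadjusted p under 0.05.

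The PS effect on Oxtr differed between the sexes. On the log2 scale the male effect minus the female effect was -1.37 (SE 0.32, interval -2.06 to -0.68, limma, adjusted p = 0.0446). An exact permutation test that exchanged male and female labels separately among PS and among CTRL libraries gave p = 0.00122 (two-sided). In the same comparison 1.61% of 14392 genes were called and 1.24% were lower in males (179 lower and 52 higher, or 131 and 99 with CPM not scaled further). The authors' correction took variation out within the real groups, so libraries are not fully exchangeable and exact p-values can be too small.

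Between the sexes, the order of Oxtr was reversed by treatment without passing the threshold on either side. CTRL females had a lower mean than CTRL males (log2 difference -0.71, SE 0.23, limma, adjusted p = 0.868; exact permutation p = 0.0571), where 0.0562% of 14244 genes were called and 5.54% had an unadjusted p under 0.05. PS females had a higher mean than PS males (log2 difference 0.66, SE 0.23, limma, adjusted p = 0.0659), where 2.09% of 14316 genes were called. The exact permutation test on this gene alone gave the smallest p it can give (p = 0.0286). On the CPM scale PS female LM30 (25.9) and PS male LM27 (26.4) overlapped by a small margin, while with TMM scaling LM30 (25.7) lay just above LM27 (25.2). The difference between PS females and PS males passed without CTRL male LM17 (limma, adjusted p = 0.0398), CTRL female LM23 (0.0483) or LM24 (0.0476), PS male LM27 (0.0484) or PS female LM30 (0.0372), and was 0.43 without PS male LM25 (adjusted p = 0.128). CTRL libraries do not enter this difference, so leaving them out changed the modelled spread and not the difference itself. From highest to lowest, mean Oxtr ran from CTRL males through PS females and CTRL females to PS males. The means of CTRL males and PS females lay within 1 SD of CTRL males of each other, the libraries of PS and CTRL females overlapped, and CTRL females and PS males were closer than either SD.

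**Figure D1:**
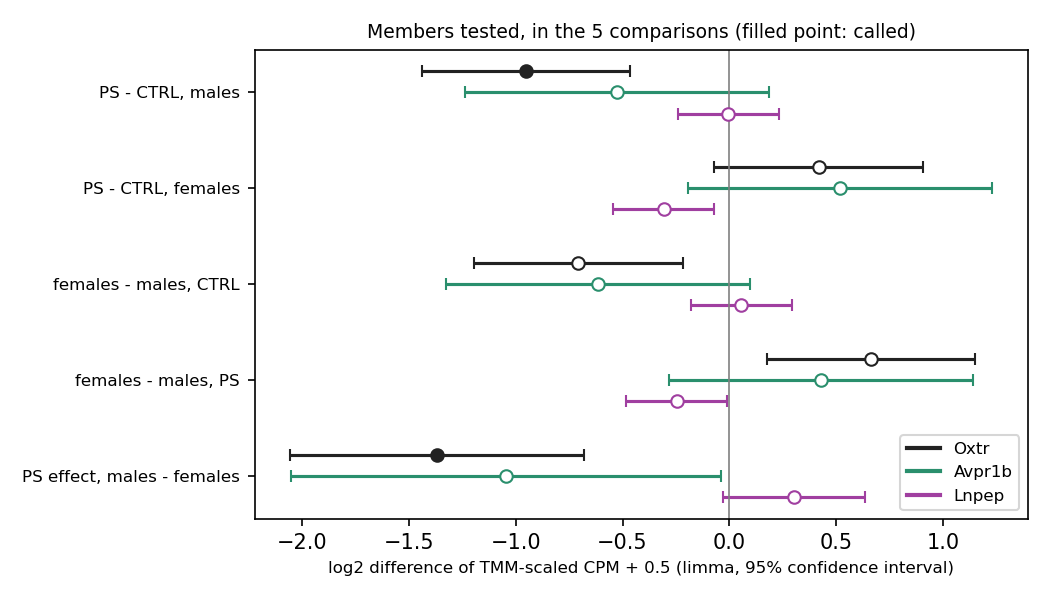
Log2 differences (horizontal axis, TMM-scaled CPM + 0.5) of the 3 tested members in the 5 comparisons, with 95% confidence intervals from limma; filled points passed the threshold. Only Oxtr in males (-0.95) and the Oxtr difference between the PS effects of the sexes (-1.37) are filled, and most intervals of Avpr1b and Lnpep include 0.

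Leaving out single libraries kept the sign of both called Oxtr differences in every case, but several cases ended the call. In males the log2 difference ran from -1.11 to -0.72 over the 16 cases, and the limma adjusted p from 0.0198 to 0.0905. It was not called without CTRL male LM18 (adjusted p = 0.0712), LM19 (0.0688) or LM20 (0.0905) or without PS male LM25 (log2 difference -0.72, limma, adjusted p = 0.0748). Nor was it called with no filter on low values (limma, adjusted p = 0.0544) or with no mean trend in the variances (0.0568). The difference between the sexes ran from -1.53 to -1.14 (limma, adjusted p from 0.0188 to 0.0624). It was lost without CTRL male LM18 (adjusted p = 0.0506) or LM20 (0.0577), CTRL female LM24 (0.0624) or PS female LM31 (0.0563) or LM32 (0.0504), with no filter (0.0540) and with no mean trend (0.0579). Both results therefore lay close to the threshold.

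**Figure D2:**
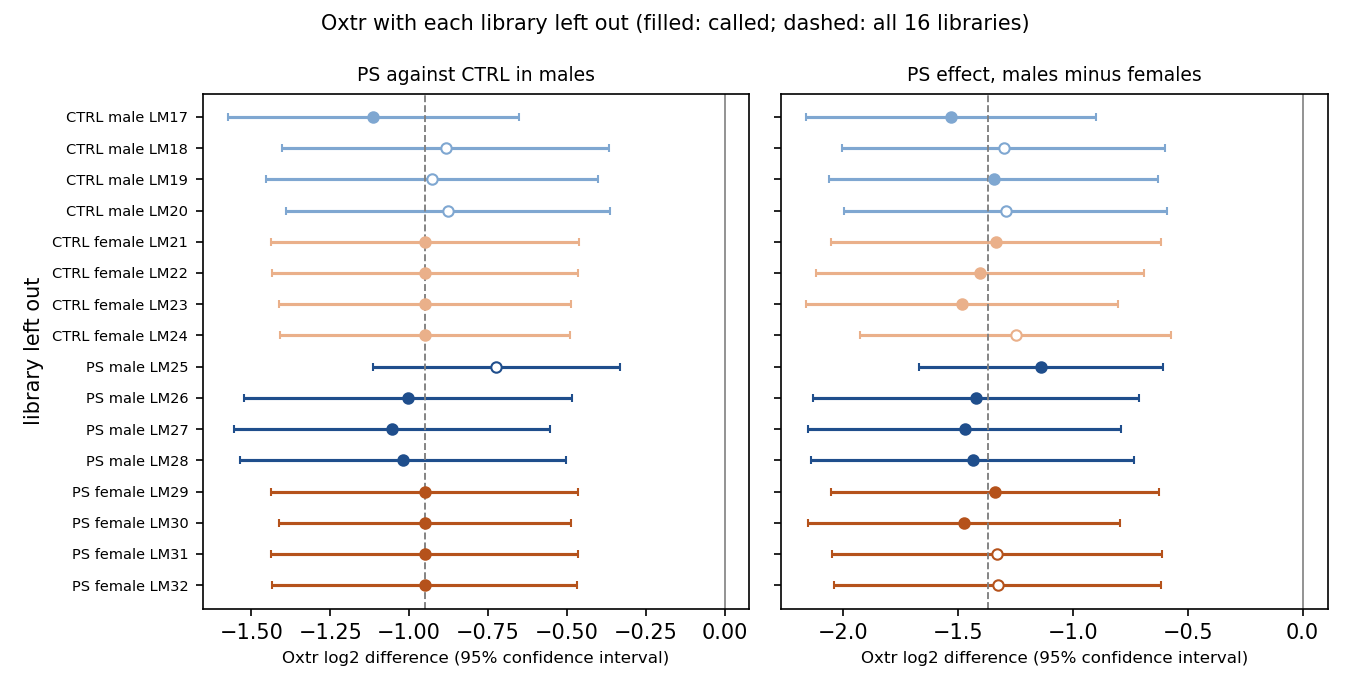
Log2 difference of Oxtr (horizontal axis, limma with 95% confidence interval) with each of the 16 libraries left out in turn; filled points were still called and the dashed line is the value with all libraries. All points lie below 0, and leaving out PS male LM25 moves the male difference most, to -0.72.

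Hippocampal markers had differences mostly opposite in sign to those of Oxtr, and other marker lists varied in either direction. The hippocampal list (Prox1, C1ql2, Tdo2, Dsp, Fibcd1, Spink8, Iyd, Lct and Zbtb20) had positive log2 differences for 9 of 9 genes in males and negative ones for 8 of 9 in females, with 0 called by limma in either (5 and 2 at an unadjusted p under 0.05). Over all genes tested, 3676 of 14309 in males and 1806 of 14236 in females had an unadjusted p under 0.05. The median log2 difference of the hippocampal list was 0.77 in males, -0.96 in females and 1.79 for the difference between the sexes, beside medians of 0.0073, -0.0012 and 0.0082 over all genes tested. Its summed CPM ran from 582 to 1047 in CTRL males, 823 to 2527 in PS males, 1097 to 1588 in CTRL females and 284 to 1374 in PS females. PS males LM25 and LM28 were highest, with 2085 and 2527. LM25 had the lowest Oxtr of the series, while LM28 did not stand apart from LM26 and LM27 in Oxtr. Without LM25 and LM28, a choice made after their marker levels were seen, the male Oxtr difference was -0.71 (SE 0.21, limma, adjusted p = 0.124, when 0 genes in all were called and 2625 had an unadjusted p under 0.05). The difference between the sexes was then -1.13 (SE 0.26, limma, adjusted p = 0.0377) and still called. Fits without LM25 and LM28 kept none of the directions of variation that the authors had removed. Their SE and adjusted p therefore come from another model of the spread than those from all libraries. Of other cell types, the astrocyte list (Aldh1l1, Gja1 and Aqp4) had positive differences for 3 of 3 genes in males, and its summed CPM did not overlap, with 338 to 367 in PS males and 265 to 305 in CTRL males. The microglial list (Cx3cr1, P2ry12 and Csf1r) had negative ones for 3 of 3, with summed CPM of 89.9 to 116 in PS males and 113 to 131 in CTRL males. For the oligodendrocyte genes Mbp and Mog the log2 differences in males were 0.77 and 0.78 (limma, adjusted p = 0.30 and 0.255), and between PS females and PS males they were -0.98 and -1.12 (limma, adjusted p = 0.156 and 0.0866). Mbp reached 389 CPM and Mog 13.1 CPM in the highest PS male, against at most 189 and 6.30 CPM in CTRL males. The pituitary list (Prl, Gh and Cga) had medians of -1.80 in males and 1.19 in females over 2 tested genes, the same signs as Oxtr, with at most 32.5 CPM in any male library. The astrocyte, microglial, endothelial, pituitary and choroid plexus lists had 0 calls in males by limma, with 2, 3, 0, 0 and 0 genes at an unadjusted p under 0.05, and 0 of 3 striatal genes passed the filter. The part of tissue composition in the Oxtr result was not tested.

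**Figure D3:**
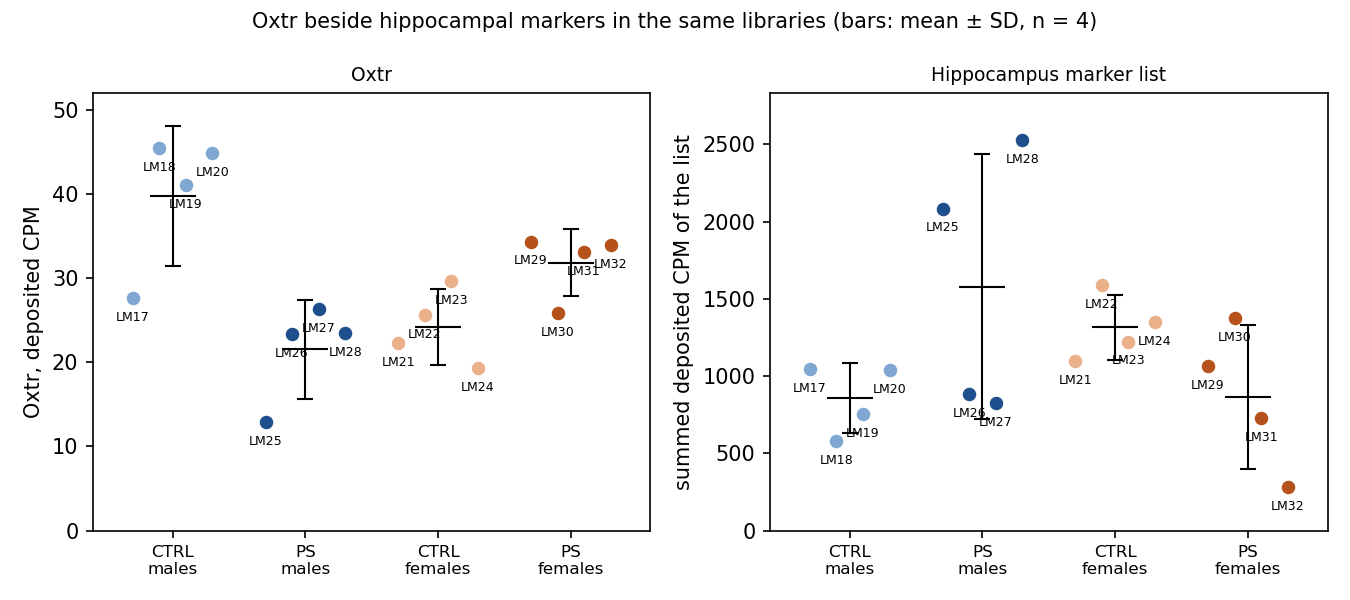
Oxtr (left) and the summed CPM of the hippocampal marker list (right) in each library, with group means ± SD (n = 4). Oxtr is lower in all 4 PS males (12.9 to 26.4 CPM) than in all 4 CTRL males, and the hippocampal sum is highest in LM25 (2085 CPM) and LM28 (2527 CPM).

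Some genes of amygdala subdivisions also fell in PS males. Esr1, which encodes oestrogen receptor alpha and marks medial amygdala neurons, averaged 3.04 ± 0.831 CPM in PS and 6.40 ± 1.91 CPM in CTRL males (SD, n = 4 each; log2 difference -1.01, SE 0.22, limma, adjusted p = 0.0424), and its PS effect also differed between the sexes (-1.23, limma, adjusted p = 0.0475). Of 2 tested genes of the medial amygdala list 1 was called lower in males, beside 0.853% of all 14309 genes. The differences were negative for 2 of 2 in males (median -0.83) and positive for 2 of 2 in females (median 0.21). Lmo3, a transcriptional cofactor abundant in the basolateral amygdala, fell by 0.93 on the log2 scale in males (limma, adjusted p = 0.0437), and 1 of 6 genes of its list was called. The list had no common direction, with 2 positive and 4 negative differences and a median of -0.07. Neurod6, a transcription factor gene of glutamatergic neurons in the same list, had 433 ± 216 CPM in PS and 189 ± 95.1 CPM among CTRL males (SD, n = 4 each; log2 difference 1.15, limma, adjusted p = 0.0867). Tshz1, a transcription factor of intercalated cells, fell by 0.62 (limma, adjusted p = 0.0470), and 1 of 7 tested genes of the central and intercalated list was called. In males 6 of these 7 genes had negative differences (median -0.51). Of them 4 had an unadjusted p under 0.05 (limma), as did 3676 of all 14309 genes tested. In females 4 were negative and 3 positive (median -0.06). Between PS females and PS males, Esr1 (1.16, limma, adjusted p = 0.0125), Lmo3 (0.95, adjusted p = 0.0175) and the somatostatin gene Sst (0.60, adjusted p = 0.0445) were higher in PS females, and the hippocampal gene Zbtb20 was lower (-0.75, adjusted p = 0.0456). Their part in the Oxtr result was not tested.

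Avpr1a and Avpr1b, the V1a and V1b vasopressin receptors, were both low, and neither differed between groups by the test across all genes. Avpr1b lies on chromosome 1 from 131599239 to 131612000 and Avpr1a on chromosome 10 from 122448499 to 122453452 (mm10, plus strand). For Avpr1b, CTRL males had 0.422 (LM17), 1.51 (LM18), 0.596 (LM19) and 1.42 CPM (LM20). PS males had 0.319 (LM25), 0.495 (LM26), 0.650 (LM27) and 0.555 CPM (LM28). CTRL males LM18 and LM20 thus stood above every PS male, and LM17 and LM19 lay among them. CTRL females had 0.560 (LM21), 0.468 (LM22), 0.139 (LM23) and 0.611 CPM (LM24). PS females had 0.764 (LM29), 2.06 (LM30), 0.590 (LM31) and 0.339 CPM (LM32), so that LM30 stood alone and the other libraries overlapped with CTRL females. The log2 difference of Avpr1b was -0.53 in males (SE 0.33, limma, adjusted p = 0.329) and 0.52 in females (SE 0.33, adjusted p = 0.531). The female difference was 0.20 without PS female LM30 and 0.35 without CTRL female LM23. For Avpr1b the male PS effect minus the female one was -1.05 (SE 0.47, interval -2.05 to -0.04, limma, unadjusted p = 0.0426 and adjusted p = 0.187; exact permutation p = 0.0465, two-sided), where 24.6% of all genes had an unadjusted p under 0.05. Females against males gave -0.62 in CTRL (SE 0.33, limma, adjusted p = 0.868) and 0.43 in PS (SE 0.33, adjusted p = 0.390), the latter 0.11 without LM30. Among females, and between the sexes in CTRL, Avpr1b passed the filter through 1 group only, the one with the higher mean.

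Markers of the tissues best known for Avpr1b varied as well. Of the CA2 list, the signalling regulator gene Rgs14 fell by 0.68 in PS males on the log2 scale (SE 0.14, limma, adjusted p = 0.0366), and Cacng5, an auxiliary subunit gene of AMPA receptors, fell by 0.81 (SE 0.17, limma, adjusted p = 0.0378). The adhesion gene Amigo2 rose by 0.82 in the same comparison (SE 0.14, limma, adjusted p = 0.0248), and all 3 also differed in PS effect between the sexes (-0.99, -1.02 and 0.94; limma, adjusted p = 0.0376, 0.0446 and 0.0387). Between PS females and PS males Rgs14 (0.79), Cacng5 (0.61) and Amigo2 (-0.68) were called too (limma, adjusted p = 0.0114, 0.0358 and 0.0133). So 2 of 5 CA2 genes were called lower and 1 higher in PS males, where 0.853% of all 14309 genes were called lower and 1.01% either way. Over all genes, 1.61% were called for the difference of the PS effects and 2.09% between PS females and PS males. The CA2 list was written with earlier results known, and the paper had already reported lower Cacng5 in PS males, so its count was not free of those results. Pomc, the hormone precursor gene of the pituitary and of arcuate neurons, was at 20.9 CPM in PS female LM30 and at 11.97 CPM in CTRL female LM21, against 0.231 to 4.61 CPM elsewhere. The summed pituitary markers were highest in the same libraries, at 581 CPM in LM21 and 269 CPM in LM30. LM30 had the highest Avpr1b of the series (2.06 CPM) and also the highest Pomc. LM21, with a higher sum of Prl, Gh and Cga but less Pomc than LM30, had 0.560 CPM of Avpr1b, within the range of its group. The CA2 list had a median of -0.44 in males and 0.19 in females. The part of these markers in the Avpr1b values was not tested.

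Avpr1a values overlapped in every comparison. CTRL males had 0.328 (LM17), 0.553 (LM18), 0.739 (LM19) and 0.252 CPM (LM20). PS males had 0.246 (LM25), 0.495 (LM26), 0.425 (LM27) and 0.362 CPM (LM28). CTRL females had 0.187 (LM21), 0.328 (LM22), 0.393 (LM23) and 0.464 CPM (LM24), and PS females had 0.501 (LM29), 0.498 (LM30), 0.408 (LM31) and 0.294 CPM (LM32). CTRL males thus held both the highest value and the widest range. Mean levels ran from 0.343 CPM (CTRL females) to 0.468 CPM (CTRL males), within the spread of CTRL males (SD 0.221, n = 4). Exact permutation tests gave p = 0.486 in males, 0.286 in females, 0.343 and 0.400 between the sexes in CTRL and PS, and 0.204 for the difference of the PS effects (all two-sided). The gene overlaps the antisense gene Gm48877 with 0 shared exonic bases. Corrected values of 8 to 31 stand behind these CPM.

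Lnpep, also called IRAP or oxytocinase, encodes a membrane aminopeptidase that cleaves oxytocin and vasopressin and travels in the vesicles of the glucose transporter GLUT4. It lies on chromosome 17 from 17521410 to 17625050 (mm10, minus strand). It did not differ beyond the spread of the libraries in males. CTRL males had 78.5 (LM17), 82.9 (LM18), 77.9 (LM19) and 69.9 CPM (LM20), and PS males 81.4 (LM25), 86.2 (LM26), 80.5 (LM27) and 73.2 CPM (LM28). The log2 difference in males was -0.0043 (SE 0.11, interval -0.24 to 0.23, limma, adjusted p = 0.985), and its sign turned with the scaling (0.06 with CPM not scaled further). CTRL females had 65.8 (LM21), 88.4 (LM22), 83.3 (LM23) and 88.2 CPM (LM24), while PS females had 77.0 (LM29), 62.7 (LM30), 67.3 (LM31) and 52.6 CPM (LM32). PS females LM32 and LM30 thus had the lowest values of the series, while LM29 lay above CTRL female LM21, so the groups overlapped. The mean was 64.9 ± 10.1 CPM for PS females and 81.4 ± 10.7 CPM for CTRL females (SD, n = 4 each). The log2 difference was -0.31 (SE 0.11, interval -0.54 to -0.07, limma, unadjusted p = 0.0142 and adjusted p = 0.301), where 12.7% of genes had an unadjusted p under 0.05. Females against males gave 0.06 in CTRL (limma, adjusted p = 0.950) and -0.25 in PS (limma, unadjusted p = 0.0413, adjusted p = 0.138). In PS 4620 of 14316 genes had an unadjusted p under 0.05, and the Lnpep difference was -0.16 without PS female LM32. The difference of the PS effects on Lnpep, male minus female, was 0.30 (SE 0.15, limma, adjusted p = 0.243). In PS female LM32, the hippocampal sum was lowest as well (284 CPM), and the part of that in its Lnpep level was not tested.

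**Figure D4:**
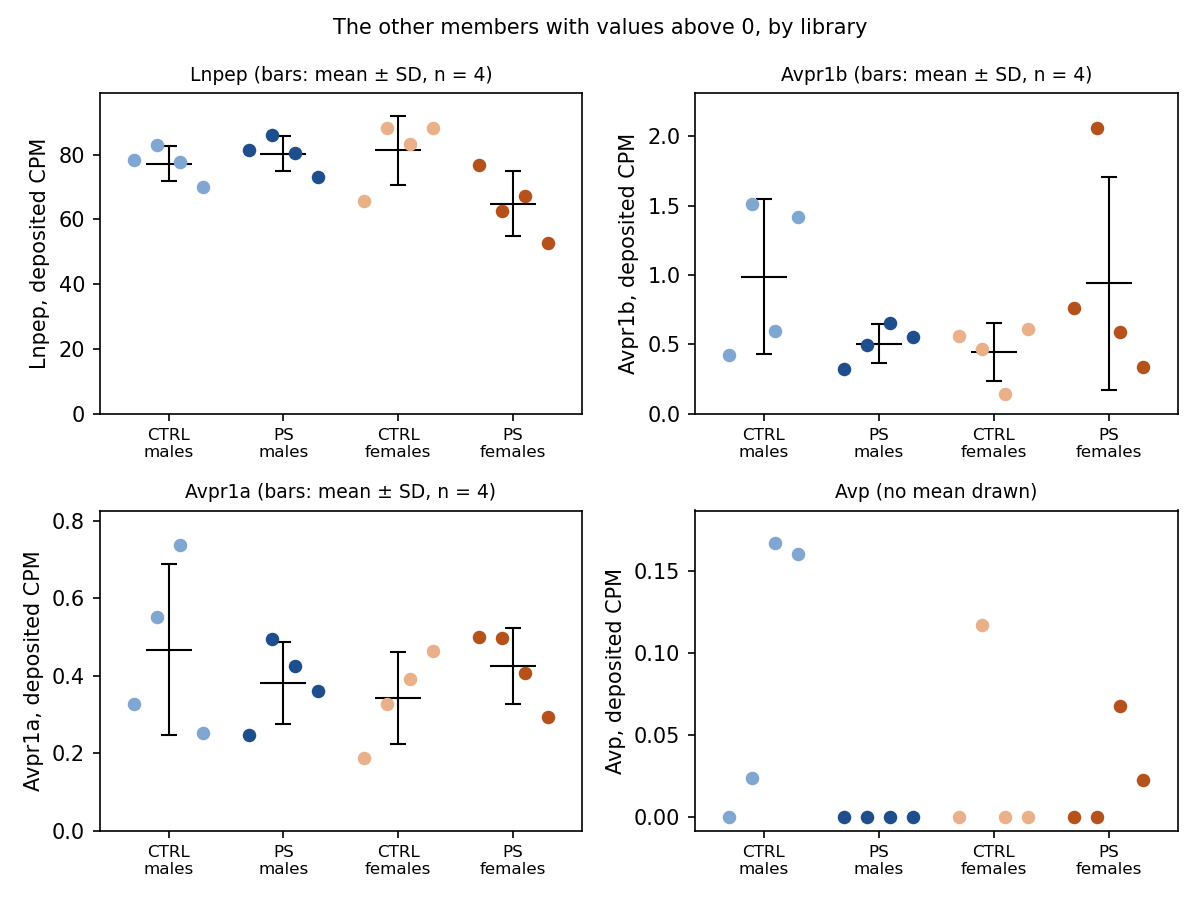
Deposited CPM of Lnpep, Avpr1b, Avpr1a and Avp in each library by group, with mean ± SD (n = 4) except for Avp, which is listed at 0 in 10 of 16 libraries. Scales differ between panels: Lnpep lies between 52.6 and 88.4 CPM, while the vasopressin receptors stay at or below 2.06 CPM.

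Compared per length of exons, the members fell into high and low sets. Mean levels over all libraries were 6.13 CPM per kb for Oxtr and 5.37 for Lnpep, at the 63.3 and 60.4 percentile of the genes with a known length. Avpr1b followed with 0.179 and Avpr1a with 0.151 CPM per kb, at or under the 18.2 percentile. Avp had 0.0605 CPM per kb, and Oxt was listed at 0. Oxtr RNA was thus measured per length at a level above that of either vasopressin receptor in all 16 libraries, while in CPM alone Lnpep, with 14144 exonic bases against 4790, stood above Oxtr.

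The genes around the members in the pathway gave few calls. Over all genes tested, 0.0% to 2.09% were called in the 5 comparisons, so few calls are likely in lists this short. Of 11 genes of peptide maturation and secretion 0 were called by limma in any of the 5 comparisons (at most 3 had an unadjusted p under 0.05), and the carboxypeptidase gene Cpe, at 2724 ± 76.5 CPM in PS females and 3342 ± 191 CPM in PS males (SD, n = 4 each), had the smallest adjusted p (log2 difference -0.22, limma, adjusted p = 0.0465), under the fold threshold. For Cd38, whose product makes cyclic ADP-ribose and is needed for oxytocin release in mice, PS males had 6.51 ± 0.912 and CTRL males 3.77 ± 0.849 CPM (SD, n = 4 each; log2 difference 0.67, limma, adjusted p = 0.120), and the other tested release regulator, Trpm2, was not called in any comparison. Of 14 genes of Gq signalling and desensitization 0 were called by limma (at most 5 had an unadjusted p under 0.05). Plcb4, a phospholipase C isoform gene, had the smallest adjusted p among them, with 6.44 ± 0.167 CPM for PS and 4.39 ± 0.182 CPM for CTRL males (SD, n = 4 each), a difference of 0.45 on the log2 scale (SE 0.071, limma, adjusted p = 0.0226), under the 1.5-fold threshold on the fitted scale. The median log2 difference of the Gq list was -0.10 in males and 0.04 in females, beside 0.0073 and -0.0012 over all genes. An unadjusted p under 0.05 (limma) was found for 3676 of 14309 genes in males and 1806 of 14236 in females. It was found for 4620 of 14316 between PS females and PS males and 3546 of 14392 for the difference of the PS effects.

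Partners of Lnpep vesicles had 0 calls by limma among 7 tested genes. At most 4 had an unadjusted p under 0.05, in PS females against PS males, where 4620 of all 14316 genes did. The vesicle fusion gene Vamp2 had 1268 ± 56.4 CPM in PS females and 1038 ± 36.5 CPM in PS males (SD, n = 4 each; log2 difference 0.36, limma, adjusted p = 0.0147), and Rab10, which moves GLUT4 vesicles in fat and muscle, differed by -0.21 (limma, adjusted p = 0.0180), both under the fold threshold. Among 8 other peptidases of small neuropeptides 1 was called, in PS females against PS males. This was Mme, the gene of neprilysin, with 2.37 ± 0.372 CPM in PS females and 4.25 ± 0.377 CPM in PS males (SD, n = 4 each), a difference of -0.67 on the log2 scale (SE 0.17, limma, adjusted p = 0.0242), beside 2.09% of all genes called in that comparison. Thop1, the thimet oligopeptidase gene, had 0.13 there (limma, adjusted p = 0.119).

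Some genes followed a member closely over the 16 libraries, given here as a description without a test, since these points share groups and the authors' correction. Among 13300 other genes with a mean CPM above 1, Oxtr was most like Tmem215 (Pearson r = 0.93), the Rac activator gene Elmo1 (0.93) and the protocadherin gene Pcdh8 (0.92). Lnpep was most like Ptar1 (0.96), the insulin receptor gene Insr (0.93) and the kinase gene Taok1 (0.90). For the low genes the likeness was weaker: Avpr1b with Gnai2 (0.81), Sytl4 (0.79) and Renbp (0.77), and Avpr1a with Zfp516 (0.85), Atp10a (0.84) and Tmem241 (0.83). The genes most like Avp, 5031426D15Rik (0.76), Pomk (0.74) and Hpgds (0.71), rest on the 6 libraries in which Avp was above 0.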

How the data were processed

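Poly(A) RNA of dissected amygdala was made into directional libraries and sequenced as single reads. The authors aligned unique reads to mm10 with STAR, counted them per gene with featureCounts, corrected the counts with RUVs and used edgeR for their own tests; tool versions and the strand setting are not given in the sources used here. The deposited table holds, per library, a corrected value that the authors rounded to whole numbers, used as a score rather than a count of reads, and CPM made by the authors from these scores. Its log2 fold changes, p-values and FDR are the authors' own comparisons and were not used. Because the deposited values are corrected, no counting interval or floor is given, and 4 libraries per group set the precision. Columns of other samples were 0.

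Before taking log2, CPM was scaled with TMM factors (0.95 to 1.047) and increased by 0.5. The fit used limma 3.58.1 (R 4.3.3), with variances following mean expression and 1 mean per group over all 16 libraries. Over the 11026 genes averaging more than 5 CPM, the libraries varied within groups in only 10 of 12 directions; the 2 directions taken out by the authors were recovered and kept in the model, leaving 10 residual degrees of freedom. With libraries left out, fewer of these directions could be kept, and without LM25 and LM28 neither was. The residual degrees of freedom stayed at 10 there, so those fits also modelled the spread otherwise. What the correction changed between groups cannot be recovered. Adjustment over all genes tested followed Benjamini and Hochberg. Single members were also tested by exact permutation (numpy 2.4.6). The fitting was tested on simulated data. Coordinates and exon lengths are those of GENCODE M21 (mm10), which gave a length for 16859 genes; promoter windows are RefSeq's (GRCm38.p6), which held 5 of the 6 members. Grk2 is in the table under its older symbol Adrbk1.

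The members and the gene lists were chosen with earlier results of these data known. All 6 members are named in every comparison; of each list, every called gene and at most 3 further genes with the smallest adjusted p are named; for each member, the 3 genes with the highest Pearson r over the libraries are named. Alternatives were other pseudocounts (0.1 and 1), no further scaling, no filter, no mean trend, the removed directions not kept, only the compared groups, and each library left out. The values of 1 marker gene are not reported here, nor the sum of its list.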

Additional observations from a re-analysis of the deposited data

Results flagged for a closer look

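The PS effect on Oxtr in males minus that in females was -1.37 on the log2 scale (limma, adjusted p = 0.0446), with every PS male below every CTRL male and 3 of 4 PS females above every CTRL female. Within PS females, LM30 had 25.9 CPM of Oxtr and stood far below the other libraries of its group, which lay between 33.1 and 34.4 CPM. LM30 was also the library with the highest Avpr1b (2.06 CPM) and Pomc (20.9 CPM). Within CTRL females, LM22 was the only library with Avp above 0, at 0.117 CPM. Chance marks about 1 in 20 groups of 4 in this way when values are normally distributed, and several members and groups were looked at. That rate does not apply to Avp, because a group with 1 library above 0 and the rest at 0 is always marked. Why these libraries stood apart was not tested.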

How the results depend on the processing

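Results here rest on 4 libraries per group and on values the authors had corrected, so the spread is that left by the correction. In males, 145 genes were called, and 55 with no filter, 48 with no mean trend, 301 with the removed directions not kept, 265 with only the compared groups, 0 without LM25 and LM28 (2625 at an unadjusted p under 0.05), and 26 to 321 with 1 library left out. For the difference of the PS effects, 231 genes were called, and 80 with no filter, 9 with no mean trend, 481 with the directions not kept and 61 to 564 with 1 library left out. Between PS females and PS males 299 were called, and 172 to 517 with 1 library left out. With CPM not scaled further, PS females had 161 higher and 198 lower calls against 208 and 91. Of the members 1 was called in males and 1 in the difference of the PS effects, and in both 0 were with no filter or no mean trend and 0 to 1 with 1 library left out; in males 0 were without LM25 and LM28. Between PS females and PS males 0 members were called, 1 with the directions not kept, and 0 to 1 with 1 library left out. The male Lnpep difference, -0.0043, turned sign with CPM not scaled further (0.056), without LM25 and LM28 (0.038) and within -0.044 to 0.027 with 1 library left out; the female Avp difference, -0.01, ran from -0.055 to 0.065 in the same way. The causes were not tested. Oxtr kept its sign under all settings tried in all 5 comparisons. No paired analysis was possible because the labels give no litter for any animal. Litters were separate within each sex, and whether males and females of a treatment shared litters is not given. The planned relation of Oxt to Avp could not be computed because Oxt was listed at 0 throughout.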
